A study of Mus musculus with 8 samples.

Results

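The genes of the proteasome, its regulators and its assembly factors were compared between denervated and innervated tibialis anterior muscle of the mouse. Members were chosen by symbol alone: every probe set with exactly 1 annotated gene symbol that starts with Psma to Psmg and a digit, or is Pomp, with the brightest probe set kept per gene. The rule gave 43 of 14860 genes, each with a single probe set. Of these, 41 encode proteasome subunits, activators, an inhibitor or assembly factors, and Psmc3ip and Psme3ip1 are members by their symbols only. The 41 comprise 5 alpha and 5 constitutive beta subunits of the 20S core, 4 immunoproteasome and thymoproteasome subunits, 8 base and 8 lid subunits of the 19S cap, 3 base assembly chaperones, 4 activators and inhibitors and 4 factors of core assembly. Another 8 genes of these families, Psma4, Psma5, Psma8, Psmb3, Psmb5, Psmd1, Psme2 and Psmg4, had no probe set of their own by this rule and were not analysed here.

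The denervated group was 4 tibialis anterior muscles of the left leg, taken 7 days after the left sciatic nerve had been cut, and the innervated group was 4 muscles of the opposite leg of operated animals. All were from male C57BL/6 mice aged 8 weeks, with no sham-operated animals among the samples used here. Each muscle gave 1 array, and values are log2 intensities, so that a positive change means a higher level after denervation and 1 unit is 2-fold. Nothing in the labels ties the muscles of a group to separate mice, and p-values measure only the spread between these samples, which may be technical. In whole muscle, a shift in the share of a cell type and a shift in RNA per cell cannot be told apart.

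The proteasome is the protease that removes most ubiquitin-tagged proteins of the cell. Its 20S core is a barrel with alpha rings at its ends, which gate the entry, and beta rings inside, where Psmb5, Psmb6 and Psmb7 carry the proteolytic sites. The 19S cap binds ubiquitin chains, cuts them off and unfolds the substrate with a ring of ATPases encoded by Psmc genes. Under interferon the catalytic beta subunits can be replaced by Psmb8, Psmb9 and Psmb10, which make the immunoproteasome of antigen-presenting cells. In skeletal muscle the ubiquitin-proteasome pathway is known for the breakdown of contractile proteins during atrophy, and the transcription factor Nfe2l1 is known to raise proteasome gene expression when proteasome activity is short.

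The members that rose in denervated muscle were mostly genes of the standard 20S core and of the 19S cap, and none of the immunoproteasome, thymoproteasome or activator genes passed the test. The difference between roles was not tested. With the inhibitor these are 8 genes, and none called among 8 is near the share of all genes called higher, 3.56%. Of the 26 core, base and lid genes 25 were in the brightest 25% of all genes, and of these 8 genes 4 were. By limma with the replicate number as a block, 14 of the 43 members rose and none fell at an adjusted p under 0.05 over all 14860 genes, where 3.56% of all genes were called higher and 4.89% lower. At an unadjusted p under 0.05, 26 members were higher and 1 lower, beside 1513 and 1712 of all 14860 genes. The 14 were 4 of the 10 constitutive core genes, 5 of the 8 base genes, 2 of the 8 lid genes, the base chaperone gene Psmd5, the core assembly factor gene Pomp, and Psme3ip1, one of those taken by symbol only. The median change of the members was 0.42, against -0.01 over all genes tested. Changes of called members were moderate, between 0.52 for Psme3ip1 and 0.86 for Psmb1, or 1.44-fold to 1.81-fold. All 4 denervated values lay above all 4 innervated ones for 11 members, or 25.6% of the 43, and for 5.32% of all genes. The share was 10.3% among the brightest 25% of genes, to which 34 of the members belong. No member had all its denervated values below, as 7.4% of all genes did.

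**Figure D1:**
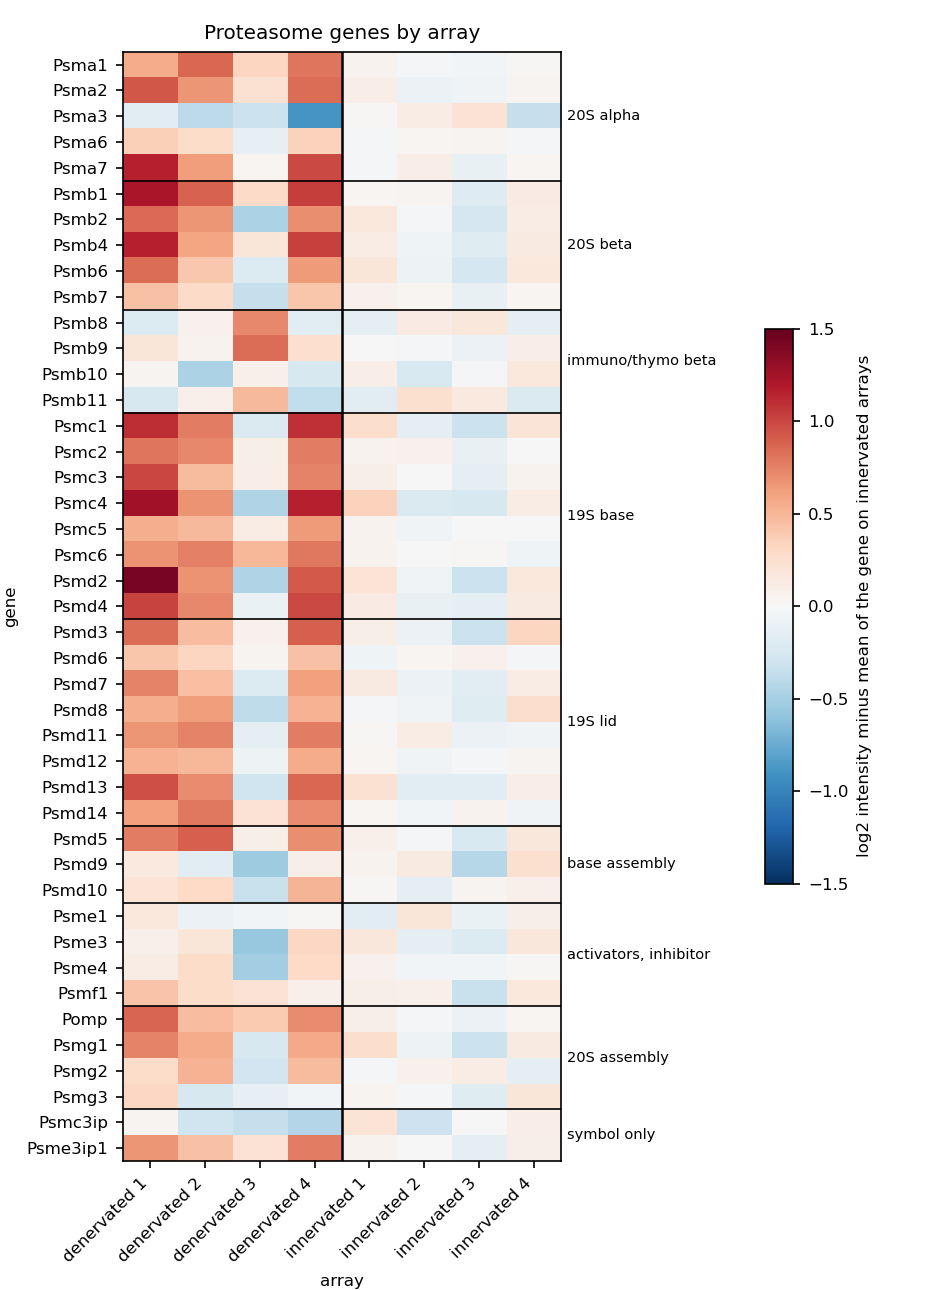
Level of each of the 43 genes (rows, by role) on each array (columns, denervated left of innervated), as log2 intensity minus the mean of that gene on the 4 innervated arrays. Denervated arrays 1, 2 and 4 are above the innervated level in nearly every row of the 20S alpha, 20S beta, 19S base and 19S lid blocks, with Psma3 below it, and denervated array 3 is near or below it in most of them.

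The arrays of replicate 3 stood apart from the rest, and the counts depended on them. Array SDs over probe sets were 1.25 on denervated array 3 and 1.36 on innervated array 3, against 1.45 to 1.56 on the other 6. Denervated array 3 gave the lowest of the 4 denervated values for 34 of the 43 members; it did so for 31.8% of all genes and for 70.7% of the brightest 25% of genes, to which 34 of the members belong. Without replicate 3, 27 members rose and none fell, beside 5.8% of all genes called higher and 5.26% lower, and all 14 genes called over 4 pairs were among the 27. In the 3 remaining pairs, all denervated values lay above all innervated values for 32 of the 43 members, for 13.6% of all genes and for 27.8% of the brightest 25%. Without replicates 1, 2 and 4 in turn, 0, 2 and 0 members passed, beside 0.922%, 1.51% and 1.18% of all genes called higher and 1.41%, 2.87% and 2.09% called lower, although 17, 19 and 20 members, and 1090, 1235 and 1082 of all genes, were higher there at an unadjusted p under 0.05. The 2 that passed without replicate 2 were Psmb1 and Pomp, and no member kept its call in all 4 omissions. Without the replicate block 6 members passed, beside 2.19% of all genes called higher and 3.19% lower. These were Psma1, Psma2, Psmb1, Psmc6, Psmd14 and Pomp. The count also moved with the scaling and weighting of arrays: 11 of the 14 passed after median centring, with no other member (2.99% of all genes higher, 4.0% lower), while 21 members rose after quantile normalization (3.93% of all genes higher, 4.78% lower), 27 after cyclic loess normalization (4.75% and 5.4%) and 26 with array weights, which gave replicate 3 the least weight (7.12% and 7.69%). Among the brighter 50% of genes, 22 of the 40 members tested rose (9.87% higher and 12.7% lower).

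The sequence before the gene start was available from RefSeq, build GRCm38.p6, for 34 of the 41 proteasome genes, in 36 windows of 250 bases. Psmb1, Psmb2, Psmb7, Psmc3, Psmd3, Psmd7 and Psmg2 were not searched. In these windows 4 motifs were looked for on both strands, with overlaps allowed. Whether a motif is bound, or goes with the change of its gene, was not tested. The core of E26-family transcription factor sites, CCGGAA, stood in 50.0% of the 36 windows, against 16.5% of 14927 windows of genes tested here and 12.0% of all 32851 windows in the table. Median GC content was 57.6% in the proteasome windows and 57.6% in those of the tested genes. The CCAAT box, CCAAT, was present in 36.1% and 34.9%, the core of the antioxidant response element, TGACNNNGC, which Nfe2l1 and Nfe2l2 bind, in 11.1% and 11.0%, and the interferon-response repeat, GAAANNGAAA, in 5.56% and 2.72%. CCGGAA stood in 12 of 22 windows of core, base and lid genes, in 3 of 8 of immunoproteasome, activator and inhibitor genes and in 3 of 6 of assembly genes.

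The windows of 6 genes are shown to set called members (Pomp, Psmc6, Psma1) beside members that missed the threshold (Psmb6, Psme4, Psmb9), each from 250 bases before the start to the base before it, in the direction of the gene, with every base of a match on either strand in capitals. They lie at chr5:147860378-147860627 (+ strand) for Pomp, chr14:45329574-45329823 (+ strand) for Psmc6, chr7:114276117-114276366 (- strand) for Psma1, chr11:70525107-70525356 (+ strand) for Psmb6, chr11:30771525-30771774 (+ strand) for Psme4 and chr17:34187331-34187580 (- strand) for Psmb9.
Pomp: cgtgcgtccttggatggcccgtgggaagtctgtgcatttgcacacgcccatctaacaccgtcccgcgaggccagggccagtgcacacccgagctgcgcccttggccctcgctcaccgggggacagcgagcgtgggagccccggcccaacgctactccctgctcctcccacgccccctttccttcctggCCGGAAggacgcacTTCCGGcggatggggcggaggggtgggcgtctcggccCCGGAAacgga
Psmc6: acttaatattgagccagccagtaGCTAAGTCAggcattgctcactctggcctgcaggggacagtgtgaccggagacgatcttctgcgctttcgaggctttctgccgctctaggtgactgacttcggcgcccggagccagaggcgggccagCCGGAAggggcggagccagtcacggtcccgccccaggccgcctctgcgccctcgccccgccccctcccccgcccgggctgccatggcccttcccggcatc
Psma1: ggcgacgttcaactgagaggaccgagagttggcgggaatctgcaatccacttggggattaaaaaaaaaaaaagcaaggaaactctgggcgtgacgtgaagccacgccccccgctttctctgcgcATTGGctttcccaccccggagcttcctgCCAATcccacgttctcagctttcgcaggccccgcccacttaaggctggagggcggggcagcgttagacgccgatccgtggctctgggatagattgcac
Psmb6: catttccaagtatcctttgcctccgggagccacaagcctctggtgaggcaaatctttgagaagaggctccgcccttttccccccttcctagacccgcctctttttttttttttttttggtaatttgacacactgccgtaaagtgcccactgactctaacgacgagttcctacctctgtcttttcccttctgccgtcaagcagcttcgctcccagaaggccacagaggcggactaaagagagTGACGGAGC
Psme4: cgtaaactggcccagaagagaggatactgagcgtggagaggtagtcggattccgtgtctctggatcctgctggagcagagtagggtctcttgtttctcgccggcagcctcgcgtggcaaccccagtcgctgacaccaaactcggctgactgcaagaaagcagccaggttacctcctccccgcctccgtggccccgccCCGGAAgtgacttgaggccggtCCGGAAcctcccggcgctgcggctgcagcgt
Psmb9: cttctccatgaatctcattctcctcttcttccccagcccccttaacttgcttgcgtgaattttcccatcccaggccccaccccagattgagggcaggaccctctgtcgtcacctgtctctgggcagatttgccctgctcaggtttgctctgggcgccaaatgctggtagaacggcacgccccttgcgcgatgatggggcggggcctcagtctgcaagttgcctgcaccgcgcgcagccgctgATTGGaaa
Pomp holds 3 matches to CCGGAA, 1 of them on the opposite strand, and Psme4 holds 2. Psmc6 holds 1 match to CCGGAA and 1 to the antioxidant response element core on the opposite strand, while in Psmb6 that core ends at the base before the start. Psma1 holds 2 CCAAT boxes, 1 on each strand, and Psmb9 holds 1 on the opposite strand. None of these matches overlaps another. Pomp rose by 0.61, whereas Psme4, with the same core motif, had a change of 0.039 that missed the threshold.

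**Figure D2:**
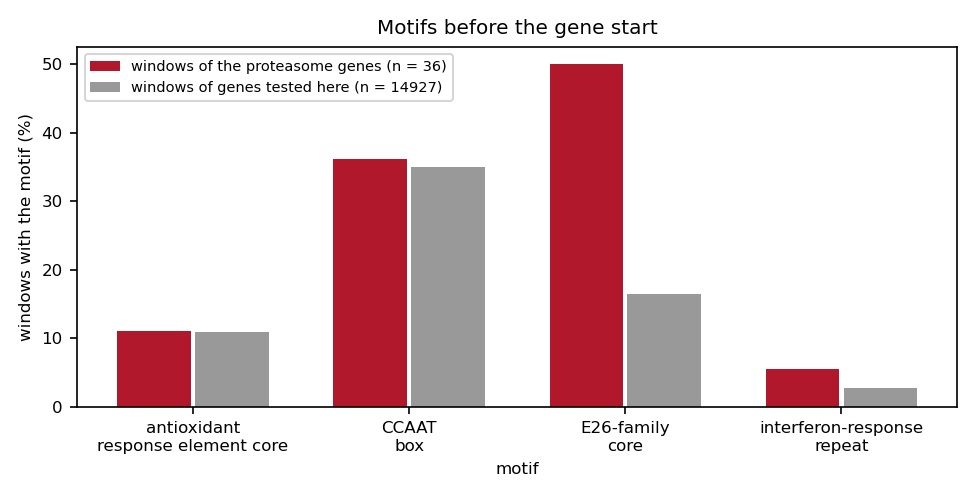
Share of 250-base windows before the gene start that hold each motif on either strand (vertical axis, percent of windows), for the 36 windows of proteasome genes and the 14927 windows of genes tested here. The E26-family core stands in 50.0% of the proteasome windows and 16.5% of the others shown, and the shares of the antioxidant response element core and the CCAAT box lie close to each other.

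Among the alpha subunits, which form the outer rings and gate of the core, 2 of 5 rose. Psma1 read 9.73, 10.03, 9.50 and 9.98 in the denervated muscles, against 9.23, 9.15, 9.13 and 9.19 in the innervated ones. Every denervated value was above every innervated one, and the gene rose by 0.64 (SE 0.12, limma adjusted p = 0.0209), or 1.55-fold. Psma2 read 11.19, 10.91, 10.48 and 11.09 in the denervated muscles, against 10.35, 10.16, 10.20 and 10.29 in the innervated ones. Its groups did not overlap either, although denervated muscle 3 was close to the innervated range, and it rose by 0.67 (SE 0.13, limma adjusted p = 0.0194). Psma7 had a similar change of 0.70 (SE 0.18) but missed the threshold (limma adjusted p = 0.0519). Its values were 10.79, 10.25, 9.65 and 10.61 in the denervated muscles, against 9.60, 9.72, 9.51 and 9.65 in the innervated ones. Only denervated muscle 3 fell within the innervated range. Without replicate 3 the gene rose by 0.89 (limma adjusted p = 0.0104), beside 5.8% of all genes called higher. Without replicates 1, 2 and 4 its limma adjusted p was 0.216, 0.115 and 0.199. Psma6 had a change of 0.21 (SE 0.13), with denervated muscle 3 at 11.15 below all 4 innervated muscles and the other 3 above them (limma adjusted p = 0.397). Psma3 had a change of -0.44 (SE 0.11) and a limma adjusted p = 0.0547. Its probe set read 3.11 to 3.84 in denervated and 3.66 to 4.21 in innervated muscles, under the lower quartiles of the 8 arrays, which ran from 4.98 to 5.36, and no detection values exist to tell such a signal from background.

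Of the 5 constitutive beta subunits, Psmb1 and Psmb4 rose. Psmb1, a structural subunit of the beta ring, read 10.81, 10.47, 9.87 and 10.62 in the denervated muscles, against 9.61, 9.63, 9.39 and 9.70 in the innervated ones. It had the largest change of all 43 members, 0.86 (SE 0.14, limma adjusted p = 0.00992), or 1.81-fold, and its groups did not overlap. Without replicates 1, 2, 3 and 4 its limma adjusted p was 0.0662, 0.0442, 0.00324 and 0.0508. Psmb4, the subunit that closes the ring of beta subunits during assembly, read 11.52, 10.94, 10.54 and 11.38 in the denervated muscles, against 10.46, 10.29, 10.17 and 10.50 in the innervated ones. All its denervated values were the higher ones, and it rose by 0.74 (SE 0.14), with a limma adjusted p = 0.0167 that became 0.0703 without the replicate block. The catalytic subunits that cleave after acidic and after basic residues, Psmb6 and Psmb7, had smaller changes of 0.42 (SE 0.13) and 0.20 (SE 0.13), and neither passed (limma adjusted p of 0.0951 and 0.474). Psmb6 read 11.52, 11.09, 10.47 and 11.32 in the denervated muscles, against 10.86, 10.61, 10.42 and 10.84 in the innervated ones. Without replicate 3 it rose by 0.54 (limma adjusted p = 0.02), beside 5.8% of all genes called higher, whereas Psmb7 still missed the threshold there (0.0843). Without replicates 1, 2 and 4 neither passed (limma adjusted p of 0.328, 0.246 and 0.301 for Psmb6). Psmb2, a structural subunit, had 3 denervated values of 9.94 to 10.13 above its innervated range of 9.03 to 9.44, whereas muscle 3, at 8.81, was below it. Its change of 0.43 (SE 0.17) was not past the threshold (limma adjusted p = 0.184) and was 0.65 without replicate 3 (0.00885). Without replicates 1, 2 and 4 the limma adjusted p of Psmb2 was 0.481, 0.428 and 0.445.

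The 19S base holds the ATPases that unfold substrates and the scaffold and ubiquitin-binding subunits beside them. All 8 measured base genes had a change above 0, between 0.44 for Psmc5 and 0.69 for Psmc1, and 5 of them rose: Psmc1, Psmc2, Psmc3, Psmc6 and Psmd4. The median change was 0.65, beside -0.01 over all genes. Psmc6 read 9.95, 10.03, 9.77 and 10.06 in the denervated muscles, against 9.32, 9.27, 9.30 and 9.21 in the innervated ones. Denervated muscle 3 stayed close to the other 3, the groups did not overlap, and the gene rose by 0.68 (SE 0.11, limma adjusted p = 0.011). Psmc2 read 9.75, 9.66, 9.04 and 9.71 in the denervated muscles, against 9.0, 9.01, 8.84 and 8.95 in the innervated ones, with no overlap, and rose by 0.59 (SE 0.13, limma adjusted p = 0.0305), with an adjusted p of 0.0688 without the block. Psmc3 also had no overlap and rose by 0.58 (SE 0.13, limma adjusted p = 0.0374), with 0.11 without the block. Psmc1 read 9.29, 8.94, 7.96 and 9.28 in the denervated muscles, against 8.44, 8.05, 7.86 and 8.37 in the innervated ones. Here denervated muscle 3 lay inside the innervated range, the rise was 0.69 (SE 0.16), and the limma adjusted p of 0.0382 became 0.233 without the block. Psmd4, a ubiquitin receptor, rose by 0.66 (SE 0.16, limma adjusted p = 0.0475) with the same kind of overlap, and had an adjusted p of 0.151 without the block.

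The 3 base genes that missed the threshold over 4 pairs all rose without replicate 3, where 5.8% of all genes were called higher. Without replicates 1, 2 and 4 in turn, none of the 8 base genes passed, beside 0.922%, 1.51% and 1.18% of all genes called higher. Psmc4 read 9.71, 9.13, 8.01 and 9.63 in the denervated muscles, against 8.81, 8.24, 8.22 and 8.57 in the innervated ones. Its denervated muscle 3 was the lowest of all 8 samples, and the change of 0.66 (SE 0.21, limma adjusted p = 0.106) became 0.95 without replicate 3 (0.00244). Psmd2, which docks ubiquitin-like shuttle proteins and the deubiquitinase Usp14, read 10.72, 9.97, 8.85 and 10.21 in the denervated muscles, against 9.50, 9.25, 8.98 and 9.46 in the innervated ones. Its change was 0.64 (SE 0.20, limma adjusted p = 0.108), and 0.90 without replicate 3 (0.00725). Psmc5 had a small change of 0.44 (SE 0.12) without overlap between the groups, and its limma adjusted p was 0.0677 over all pairs and 0.0172 without replicate 3.

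The lid carries the deubiquitinase Psmd14, which removes the ubiquitin chain, within a frame of structural subunits. All 8 lid genes had a change above 0, from 0.30 for Psmd6 to 0.58 for Psmd14, with a median of 0.45, and Psmd3 and Psmd14 rose. Psmd14 read 9.93, 10.09, 9.52 and 10.02 in the denervated muscles, against 9.34, 9.27, 9.36 and 9.25 in the innervated ones. The groups did not overlap, and it rose by 0.58 (SE 0.14, limma adjusted p = 0.0403), or 1.5-fold. Psmd3, a structural subunit, read 7.59, 7.21, 6.82 and 7.65 in the denervated muscles, against 6.84, 6.66, 6.43 and 7.07 in the innervated ones. Its groups overlapped through denervated muscle 3, but it was higher in all 4 pairs and rose by 0.56 (SE 0.11, limma adjusted p = 0.0195); without the block the limma adjusted p was 0.17. Psmd11, which ties the lid to the core, read 9.55, 9.63, 8.75 and 9.65 in the denervated muscles, against 8.91, 9.0, 8.80 and 8.84 in the innervated ones. It had a change of 0.51 (SE 0.15) and missed the threshold (limma adjusted p = 0.0984), like Psmd6, Psmd7, Psmd8, Psmd12 and Psmd13 (0.107 to 0.287). Without replicate 3, 7 of the 8 lid genes rose, beside 5.8% of all genes called higher, and Psmd6 was just outside (limma adjusted p = 0.0503). None of the 8 passed without replicates 1, 2 and 4 in turn. In each of the 8, the 3 denervated muscles other than number 3 were above the 3 innervated ones. That held for 13.6% of all genes and for 27.8% of the brightest 25%, to which all 8 belong.

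**Figure D3:**
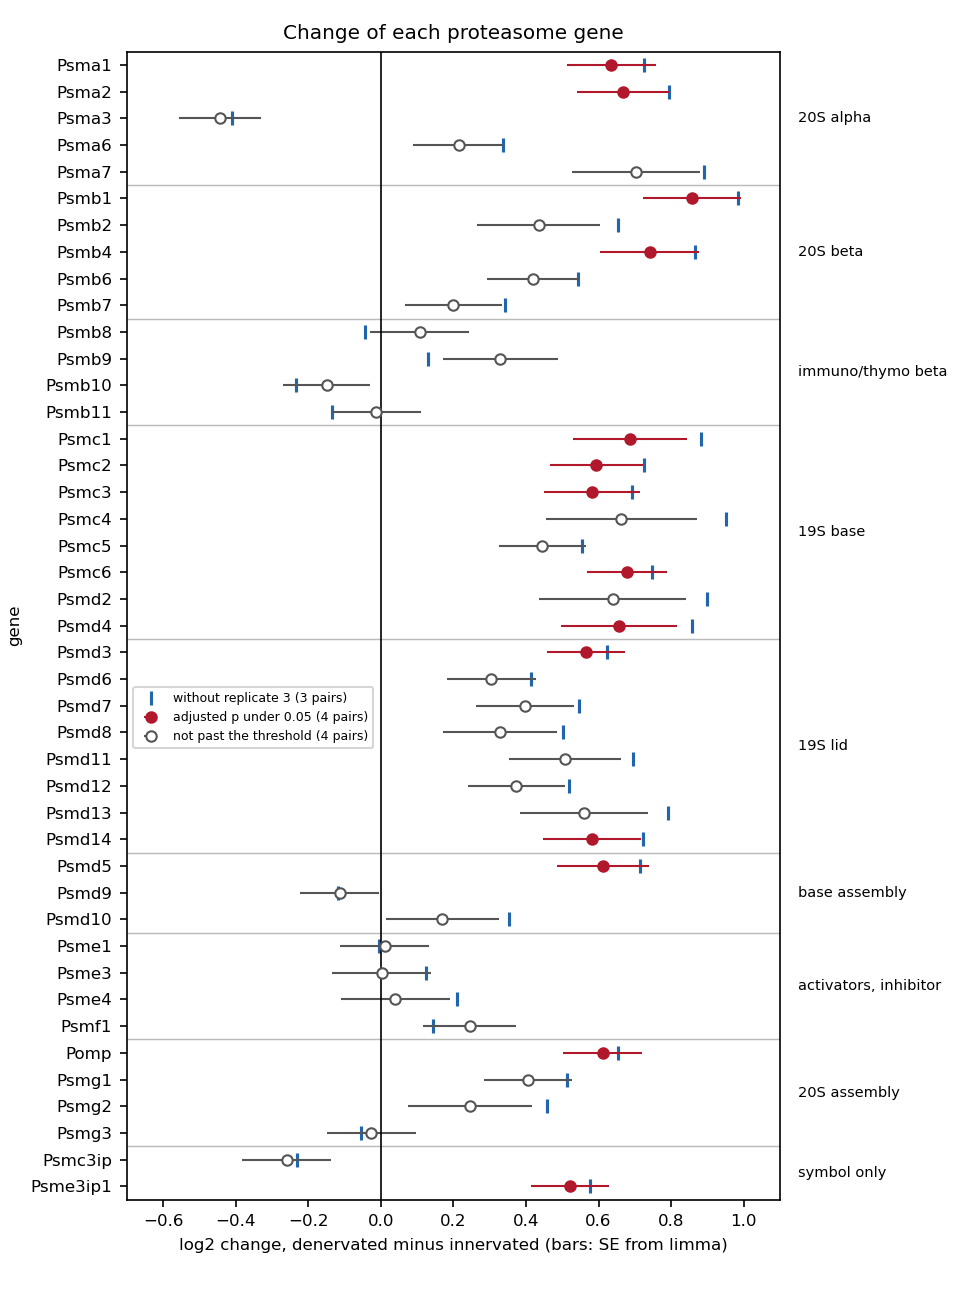
Change of each of the 43 genes as denervated minus innervated log2 intensity (horizontal axis), with bars for the SE from limma over 4 pairs, filled points for an adjusted p under 0.05 over all 14860 genes, and vertical ticks for the change without replicate 3. The 14 filled points lie between 0.52 and 0.86, all 16 base and lid genes lie above 0, and the immunoproteasome, thymoproteasome, activator and inhibitor genes lie between -0.15 and 0.33, with open points.

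Subunits that take the place of standard ones did not pass the test in either direction. None of the 4 genes was called by limma or had an unadjusted p under 0.05, and their median change was 0.05. Psmb9, which replaces Psmb6, read 6.92, 6.79, 7.57 and 6.98 in the denervated muscles, against 6.74, 6.72, 6.65 and 6.84 in the innervated ones. Psmb8, which replaces Psmb5, read 6.14, 6.40, 7.06 and 6.18 in the denervated muscles, against 6.19, 6.46, 6.51 and 6.20 in the innervated ones. In both genes denervated muscle 3 was the highest of the 8 samples and the other denervated muscles lay among or near the innervated ones. The changes were 0.33 (SE 0.16, limma adjusted p = 0.289) for Psmb9 and 0.11 (SE 0.14, limma adjusted p = 0.749) for Psmb8, and without replicate 3 they were 0.13 and -0.043. Psmb10, which replaces Psmb7, had a change of -0.15 (SE 0.12, limma adjusted p = 0.562). The thymus subunit gene Psmb11, whose values of 4.63 to 5.49 over all arrays lay around the lower quartile, had one of -0.014 (SE 0.12, limma adjusted p = 0.97). Psmb8 and Psmb9 belong to the interferon-inducible genes of the major histocompatibility complex, so a list of 17 class I antigen presentation genes was set beside them. Of its 13 measured members 1 rose, the chaperone gene Canx, which also serves general protein folding, and none fell, beside 3.56% and 4.89% of all genes, with a list median of 0.15. Canx rose by 0.51 (SE 0.12, limma adjusted p = 0.0364).

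Whether standard and replacing subunits changed unequally was tested on the difference of both genes within each array, for the pairs Psmb6 and Psmb9 and Psmb7 and Psmb10, with p-values adjusted over these 2 pairs; Psmb5 was not analysed here. Psmb6 minus Psmb9 was 4.61, 4.30, 2.90 and 4.33 in the denervated muscles, against 4.12, 3.89, 3.77 and 4.00 in the innervated ones. The difference was higher in denervated muscles 1, 2 and 4 and lowest in denervated muscle 3, so its mean shift was 0.09 (SE 0.32; two-sided exact permutation test, p = 0.886, adjusted 0.886). Psmb7 minus Psmb10 was 4.82, 5.19, 4.00 and 5.07 in the denervated muscles, against 4.38, 4.68, 4.34 and 4.29 in the innervated ones, a shift of 0.35 (SE 0.24; exact permutation p = 0.229, adjusted 0.457). Each SE here is over the 4 same-number differences, whereas the permutation test splits the 8 samples without regard to number. The smallest p that 4 against 4 samples allow is 0.0286. Without replicate 3 the shifts were 0.41 and 0.58 and the groups did not overlap in either pair (exact permutation adjusted p = 0.1 for each, and 3 against 3 samples allow no smaller one). An unequal change of standard and replacing subunits was therefore not shown.

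Regulators that bind the ends of the core showed no called change. Psme1, a subunit of the interferon-inducible 11S activator, read 8.77, 8.52, 8.56 and 8.62 in the denervated muscles, against 8.45, 8.79, 8.51 and 8.69 in the innervated ones. The groups overlapped throughout, and the change was 0.010 (SE 0.12, limma adjusted p = 0.978). Psme3, the nuclear 11S activator, had a change of 0.0021 (SE 0.14) and Psme4, the large single-chain activator PA200, one of 0.039 (SE 0.15), with limma adjusted p of 0.996 and 0.929. Psme4 read 9.70, 9.86, 9.06 and 9.89 in the denervated muscles, against 9.65, 9.55, 9.54 and 9.60 in the innervated ones: 3 denervated muscles were slightly above the innervated range and muscle 3 below it. Psmf1, which encodes the inhibitor PI31, had a change of 0.25 (SE 0.13, limma adjusted p = 0.333). None of these 4 genes had an unadjusted p under 0.05, also without replicate 3, and their median change was 0.02, or 0.13 without replicate 3.

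Assembly factors were divided. Pomp, the maturation protein that is built into the maturing core and is its first substrate, read 11.81, 11.39, 11.32 and 11.64 in the denervated muscles, against 11.01, 10.91, 10.84 and 10.96 in the innervated ones. It rose by 0.61 (SE 0.11, limma adjusted p = 0.0151), or 1.53-fold, with no overlap and with denervated muscle 3 close to the others. Psmd5, a chaperone of the base that binds the ATPase Psmc2, averaged 6.67 ± 0.36 in denervated and 6.05 ± 0.17 in innervated muscles (mean ± SD, n = 4 each) and rose by 0.61 (SE 0.13, limma adjusted p = 0.026); the adjusted p was 0.087 without the block. Psmg1, one of a chaperone pair that starts the alpha ring, had a change of 0.41 (SE 0.12) and its partner Psmg2 one of 0.24 (SE 0.17), neither past the threshold over 4 pairs (limma adjusted p of 0.0934 and 0.495). Without replicate 3 both rose, by 0.51 and 0.46 (0.0239 and 0.0454), beside 5.8% of all genes called higher. Neither passed without replicates 1, 2 and 4, where the limma adjusted p was 0.292, 0.276 and 0.287 for Psmg1 and 0.698, 0.744 and 0.865 for Psmg2. Psmg3, a further alpha-ring chaperone, had a change of -0.026 (SE 0.12), and the base chaperones Psmd9 and Psmd10 had changes of -0.11 (SE 0.11) and 0.17 (SE 0.16), with limma adjusted p of 0.944, 0.652 and 0.633. Psmg3 was dim, at 5.45 to 6.01 in the denervated and 5.51 to 5.88 in the innervated muscles, near the array medians of 5.84 to 6.00.

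Among the genes taken by symbol only, Psme3ip1, which encodes a protein that binds the activator Psme3, read 7.22, 7.00, 6.78 and 7.33 in the denervated muscles, against 6.61, 6.56, 6.42 and 6.64 in the innervated ones, without overlap, and rose by 0.52 (SE 0.11, limma adjusted p = 0.0268); without the block it missed the threshold (0.0609). Psmc3ip, a meiotic recombination factor, had a change of -0.26 (SE 0.12, limma adjusted p = 0.278).

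For core, base and lid genes the medians of pairs 1, 2 and 4 lay within 0.54 to 0.87, and those of pair 3 were lower. The median change over the 10 constitutive core genes was 0.68, 0.59 and 0.69 in pairs 1, 2 and 4 and 0.10 in pair 3. Base genes had medians of 0.87, 0.74 and 0.81, against 0.11 in pair 3, and lid genes 0.60, 0.59 and 0.54, against -0.05. Immunoproteasome and thymoproteasome genes showed the opposite order, with -0.06, -0.11 and -0.08 in pairs 1, 2 and 4 and 0.45 in pair 3. Denervated array 3 gave the highest denervated value for all 4 of them. It did so for 47.5% of all genes and for 12.2% of the brightest 25%, to which 1 of the 4 belongs. Activators and the inhibitor had medians of 0.18, 0.25, -0.16 and 0.03 in pairs 1 to 4. Medians over all genes lay between -0.07 and 0.03. The pair 3 median of the 26 core, base and lid genes was 0.05 on the deposited values, 0.33 after quantile and 0.39 after cyclic loess normalization, and -0.01 after median centring. These medians describe the groups; the difference between roles was not tested.

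**Figure D4:**
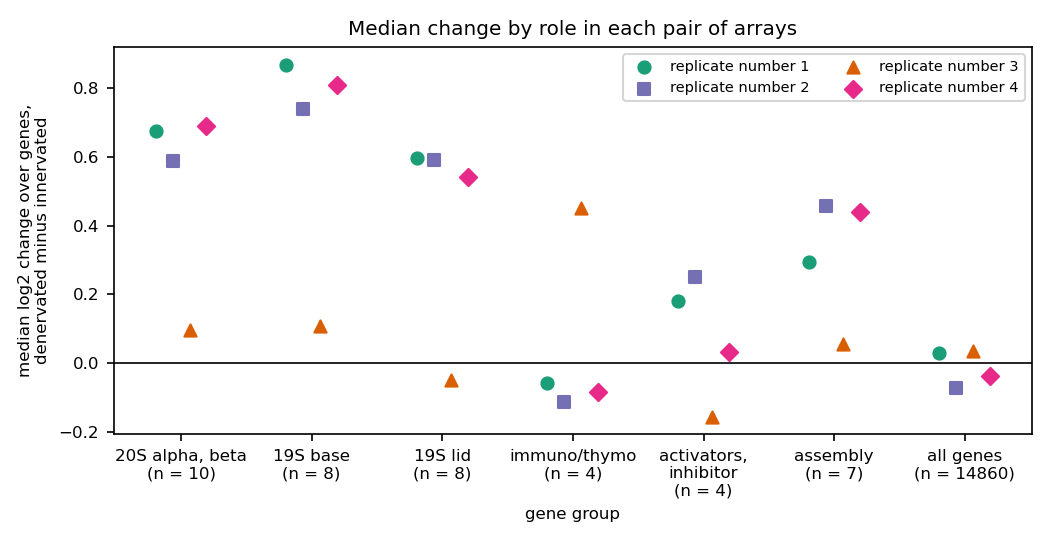
Median over genes of the log2 change, denervated minus innervated (vertical axis), for each role and for all 14860 genes (horizontal axis), with 1 point per replicate number. Replicate numbers 1, 2 and 4 lie between 0.54 and 0.87 for core, base and lid genes and number 3 between -0.05 and 0.11, while number 3 is the highest point for immunoproteasome and thymoproteasome genes.

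Markers of other cell types also differed between the groups and on denervated array 3. All 13 leukocyte markers were measured and 4 of them rose (Cd68, Tyrobp, Laptm5 and Cd53), beside 3.56% of all genes, with a median change of 0.84, or 0.43 without replicate 3. Without the block Laptm5 and Cd53 were no longer called (limma adjusted p of 0.158 and 0.219). Without replicate 3, 5 of the 13 rose, beside 5.8% of all genes: the same 4 and Ptprc (limma adjusted p = 0.0207). The summed linear intensity of the 13 markers was 1783, 1408, 4119 and 1440 in the denervated muscles, against 932, 880, 1000 and 788 in the innervated ones. Denervated muscle 3 had the highest sum of all 8. The markers differed in this. Ptprc, Cd52, Cd3e, Cd79b and Csf1r were not called over 4 pairs and are named after their values were seen. Ptprc and Cd52 read 9.34 and 8.96 there, against 5.97 to 6.10 and 4.43 to 5.06 in the other denervated muscles. Cd3e and Cd79b read 7.50 and 7.73, against 5.56 to 5.94 and 5.51 to 6.01, whereas Csf1r read 6.47, against 5.95 to 6.36. Laptm5 and Cd53 read 8.32 and 8.98, against 6.70 to 7.41 and 6.54 to 6.99. Cd68 and Tyrobp read 7.59 and 9.71, against 7.37 to 7.55 and 9.12 to 9.53. On denervated array 3 the 26 core, base and lid genes had a median of -0.09 relative to their innervated means. The 4 immunoproteasome and thymoproteasome genes had one of 0.60. On the other denervated arrays these medians were 0.65 to 0.82 and -0.20 to 0.06. The brightest 25% of all genes had a median of -0.29 on denervated array 3 and of 0.04 to 0.07 on the other denervated arrays. For all genes tested the medians were 0.08 and -0.09 to -0.02. Fast muscle markers, 9 of 11 measured, summed to 31669 to 37898 in denervated and 43292 to 46370 in innervated muscles, and 2 of them fell, Ckm and Mylpf, beside 4.89% of all genes. For endothelial markers (6 of 6 measured, 3 lower) the sums were 642 to 966 and 864 to 1310, for fibroblast markers (6 of 6, 1 higher) 2866 to 4309 and 3232 to 5006, and for Schwann cell markers (5 of 7, 1 lower) 374 to 499 and 397 to 1433 in denervated and innervated muscles. Of these calls, the endothelial genes Emcn and Cd34 and the Schwann cell gene Pmp22 were lost without the block (limma adjusted p of 0.0679, 0.377 and 0.0816). Without replicate 3, 2 fibroblast genes fell, Col1a1 and Col1a2 (limma adjusted p of 0.00846 and 0.019), and Cd34 was not called (0.0649). The part of these cell types, and of array 3, in the proteasome changes was not tested, and the core, base and lid genes had a median change of 0.71 without replicate 3, against 0.57 with it.

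**Figure D5:**
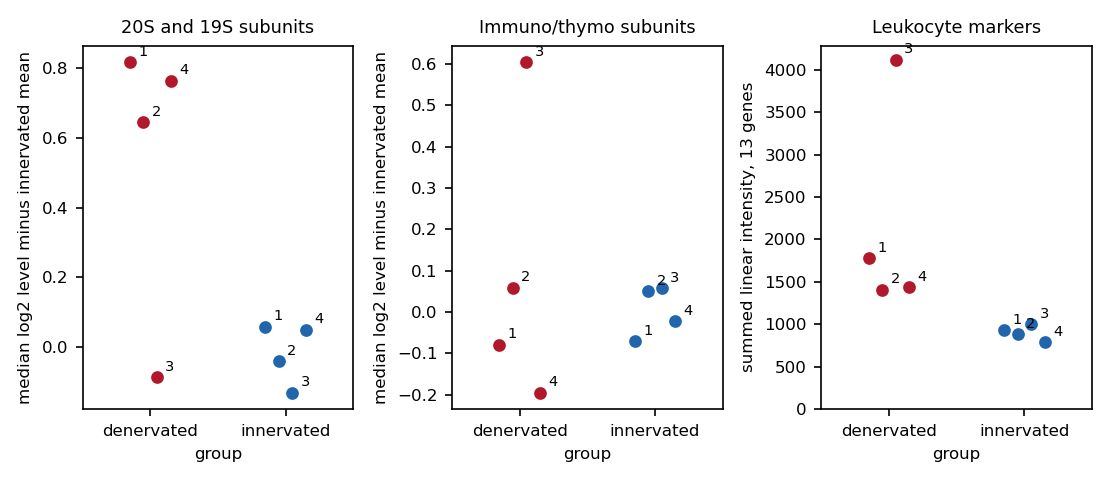
The panels show, for each array (points, numbered by replicate, denervated left of innervated), the median log2 level relative to the innervated mean of the 26 core, base and lid genes, the same for the 4 immunoproteasome and thymoproteasome genes, and the summed linear intensity of 13 leukocyte markers. Denervated array 3 is at -0.09, 0.60 and 4119, apart from the other denervated arrays in all panels.

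Genes whose products work with the proteasome were taken from a list of 34, of which 20 were measured. Of these 3 rose and none fell, beside 3.56% and 4.89% of all genes, with a median of 0.20. Usp14, a deubiquitinase that sits on the 19S base, read 8.21, 8.79, 8.07 and 8.70 in the denervated muscles, against 7.71, 7.80, 7.67 and 7.53 in the innervated ones. All denervated values were above all innervated ones, and it rose by 0.77 (SE 0.15, limma adjusted p = 0.0229). Txnl1, a thioredoxin-like protein bound to the cap, rose by 0.64 (SE 0.13, limma adjusted p = 0.0236), and Nploc4, a cofactor of the segregase that feeds substrates to the proteasome, by 0.55 (SE 0.13, limma adjusted p = 0.0374), the last with 0.322 without the block. Nfe2l1, named after its values were seen because it regulates proteasome genes, read 10.39, 9.75, 8.75 and 10.30 in the denervated muscles, against 9.28, 9.07, 8.71 and 9.29 in the innervated ones. Denervated muscle 3 lay inside the innervated range and the other 3 above it, and with a change of 0.71 (SE 0.18) it was not called (limma adjusted p = 0.054, and 0.00481 without replicate 3). Without replicate 3, 8 of the 20 rose and none fell, beside 5.8% and 5.26% of all genes. Sem1, a small lid subunit outside the symbol rule and also named after its value was seen, had a change of 0.0078 (SE 0.10, limma adjusted p = 0.98).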

How the data were processed

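RNA of 8 mouse muscles was measured on 1 oligonucleotide array each. Amplified, biotin-labelled cDNA was hybridised, per the labels' protocols. The authors deposited log2 intensities of probe sets, made with GCOS and RMA, per the submitters' processing notes. RMA corrects background, normalizes between arrays and summarises probes. The notes name the build mm9; the sources used here give no versions, probe set definitions or filters. Values ran from 1.67 to 13.1. Without detection values, precision is limited by how many arrays there are.

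Of 16755 probe sets, 14996 had 1 symbol in the platform annotation, 1019 several and 740 none; the brightest probe set per gene gave 14860 genes. All 43 members were found by Entrez ID in the RefSeq table of GRCm38.p6, with no symbol changed. Another 4 probe sets carry a member symbol beside others and were left out. All 8 columns were used.

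Group and replicate number were fitted with limma 3.58.1 (R 4.3.3; default empirical Bayes, two-sided, Benjamini-Hochberg over all genes, threshold 0.05; 3 residual and 4.57 prior degrees of freedom). The block follows the submitters' design, which sets each muscle against the contralateral one. Deviations from the group means correlated between same-numbered muscles at 0.234, -0.03, 0.453 and 0.349, so the labels and data do not establish the pairing, and the fit without the block is given where it changes a call. The fit was also run on simulated data with independent noise, a true replicate block and no deviating array. That setting differs from these arrays, so the run does not show how reliable the calls here are. Exact permutation tests went through all splits with numpy 2.4.6 in Python 3.11.15. Of the 3 catalytic pairs planned, the one with Psmb5 could not be tested. Members, roles and gene lists were chosen with earlier results of these data known; every member may be named, and of other lists the called genes, with exceptions stated. The alternatives were no or a random block, 3 other normalizations (quantile, median centring, cyclic loess), dropping the dimmest 25% or 50% of genes, averaging probe sets, array weights, moderation with trend and robust, and leaving out every replicate number in turn.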

Additional observations from a re-analysis of the deposited data

Results flagged for a closer look

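Of 90 groups of 4 values (43 genes and 2 within-array differences, denervated and innervated), 6 held a value far from the other 3 by Dixon's criterion, which flags about 5% of groups by chance. Psmb2 read 8.81 on denervated array 3, against 9.94 to 10.13 on the other denervated arrays. Psmc2 read 9.04 on denervated array 3, against 9.66 to 9.75 on the other denervated arrays. Psmd8 read 8.51 on denervated array 3, against 9.40 to 9.51 on the other denervated arrays. Psmd11 read 8.75 on denervated array 3, against 9.55 to 9.65 on the other denervated arrays. Psmd12 read 9.91 on denervated array 3, against 10.49 to 10.54 on the other denervated arrays. Psmf1 read 5.60 on innervated array 3, against 6.01 to 6.09 on the other innervated arrays. Of the 6, 5 were low values on denervated array 3. Without replicate 3, Psmb2, Psmd8, Psmd11 and Psmd12 passed the threshold that they missed over 4 pairs, and Psmc2 passed in both. In that setting 5.8% of all genes were called higher. These 5 genes were flagged for their low value on denervated array 3, so leaving it out favours a call and is no separate support. None of the 5 passed without replicates 1, 2 and 4 in turn. Psmf1 missed it in both. The cause was not tested.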

How the results depend on the processing

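The direction of the members as a group did not depend on the setting: the median change lay between 0.38 and 0.55 under all 14 alternatives, against 0.42. The number past the threshold did. It was 14 with the replicate block and 6 without it, 27 after cyclic loess normalization, 22 of 40 genes above the 50% filter on dim genes, 26 under array weights (where 1, Psma3, fell), and 0 to 27 with 1 replicate left out; the cause was not tested. For all genes, 326 rose and 474 fell without the block, 1058 and 1142 with array weights, and 137 to 862 and 210 to 781 with 1 replicate left out. Groups that did not overlap numbered 20 members after quantile, 7 after median and 21 after cyclic loess normalization, and 11 to 32 with 1 replicate left out, against 11. The share of all genes was 5.32% over 4 pairs on the deposited values and 13.6% without replicate 3. It was not counted for the other settings, so the member counts there have no background beside them. The shift of Psmb6 minus Psmb9 ranged over -0.041 to 0.41 with 1 replicate left out, against 0.09, and the sign-flip test over the replicate block cannot go below p = 0.125 by permutation. Near 0, and never called, some signs turned: Psmb11 was at 0.0037 after quantile normalization and -0.13 to 0.036 with 1 replicate left out, Psme1 at -0.0075 with array weights and -0.092 to 0.10, Psmb8 at -0.043 to 0.16, Psme3 at -0.11 to 0.12, Psme4 at -0.050 to 0.21 and Psmg3 at -0.13 to 0.038. Over the 43 genes and these settings, 471 values kept direction and call, 53 lost and 59 gained the call, and 14 changed sign. Same-numbered arrays of number 2 did not deviate together (-0.03), and only denervated arrays 1, 3 and 4 and innervated arrays 3 and 4 correlated best with their own number. Dim probe sets such as that of Psma3 set a limit that the absence of detection values leaves unmeasured.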
